A study of Mus musculus with 12 samples.

Results

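Bile and organic anion transporters are membrane proteins that move bile acids, bilirubin conjugates, phospholipid, sterols and drugs through the hepatocyte. The 10 genes described here were chosen by name, and all probes that the array's annotation assigns to them were taken, which gave 14 of the 45281 probes on the array. The 10 are among 19057 named genes. For 8 of them at least 1 probe was detected well enough to be tested, and 2, Slc10a1 and Slco1a1, were not tested.

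The study measured liver mRNA on 12 Illumina bead arrays. In 6 of them the mice had received leptin into a brain ventricle (icv), at 25 ng in 0.11 µL per hour up to day 10, and in 6 they had received phosphate-buffered saline (PBS) by the same route, with volume and day unrecorded. All 12 samples came from insulin-deficient mice of mixed strain background. The labels do not say how the deficiency was produced, nor the sex and age of the mice. Leptin is a fat-derived hormone that acts largely on the brain, and the comparison asks what its action there changes in a liver without insulin. Arrays carry the numbers 1 to 6 within each group, and the labels do not tie an array to a mouse, and the p-values therefore reflect array-to-array spread, part of which could be technical.

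In a hepatocyte the basolateral membrane faces the blood and the canalicular membrane faces the bile. Uptake carriers of the solute carrier families Slc10 and Slco bring bile acids and organic anions in from the blood. ATP-driven pumps of the Abc families then push bile acids, phosphatidylcholine, sterols and conjugates into bile, while another group of pumps on the basolateral side returns anions to the blood. Nuclear receptors that sense bile acids and drugs, and the stress-responsive factor NRF2, are known regulators of these genes in liver.

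The arrays detected between 13159 and 14431 probes each. Pearson correlations across probes ran from 0.946 to 0.984 between arrays of a group and from 0.926 to 0.972 between arrays of different groups. The closest pair of arrays still had a median absolute log2 difference of 0.218. All levels below are normalized intensities on a log2 scale, means are over n = 6 arrays per group, and each value after ± is an SD for a level and an SE for a difference. Differences are leptin minus PBS, tested with limma over 8819 genes with Benjamini-Hochberg adjustment, and a gene passed at an adjusted p under 0.05. Levels of different probes were not compared with each other, because a probe's brightness depends on its own sequence. In whole liver, fewer cells of a type and less RNA per cell cannot be told apart.

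Of the 8 transporters tested, 2 passed the test, Slco1a4 and Abcc3, both lower with leptin. That is 25% of those tested, against 16.7% of all genes tested (8.31% higher and 8.4% lower). Counted by probe, 2 of the 10 member probes kept passed and both were lower, against 18.1% of all probes kept (9.76% lower). The median difference of the 8 was -0.29, with 5 below 0, against a median of 0.0039 over all genes. The values of the leptin and PBS arrays overlapped in all 8 transporters, and 7.28% of all genes tested had groups that did not overlap. The 2 that passed lie on the blood-facing side, 1 an uptake carrier and 1 an export pump, and 0 of the 4 canalicular pumps passed. Slco1b2 and Abcc4, also on the blood-facing side, did not pass, and Slc10a1 and Slco1a1 of that side were not tested. With so few genes, these counts do not set the sides apart.

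Promoter sequence from RefSeq, on build GRCm38.p6, was matched by gene for 9 of the 10 transporters; Abcc3 was not among them. Shown first are bases upstream of Slco1a4, which fell with leptin, and of Slco1b2, its family member on the same chromosome, which did not pass the test. Capitals in Slco1b2 mark the letters TATAAA. The last is the promoter of Abcc2, in which capitals mark a match to TGACNNNGC, the core letters of the antioxidant response element that NRF2 binds. All are written 5′ to 3′ on the gene's own strand. Each stretch stops at the outermost annotated start of its gene, which for Slco1b2 lies 66 bases, and for Slco1a4 64 bases, before the start that the promoter table uses.
Slco1a4, chr6:141856285-141856470, minus strand: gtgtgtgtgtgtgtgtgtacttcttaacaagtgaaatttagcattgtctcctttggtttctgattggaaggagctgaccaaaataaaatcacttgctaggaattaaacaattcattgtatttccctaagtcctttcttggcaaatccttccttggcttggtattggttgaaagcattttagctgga
Slco1b2, chr6:141629268-141629451, plus strand: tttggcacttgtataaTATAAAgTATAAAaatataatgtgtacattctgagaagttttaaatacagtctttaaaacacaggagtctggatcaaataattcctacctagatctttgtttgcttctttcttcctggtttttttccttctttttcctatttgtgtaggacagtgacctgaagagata
Abcc2, chr19:43782058-43782307, plus strand: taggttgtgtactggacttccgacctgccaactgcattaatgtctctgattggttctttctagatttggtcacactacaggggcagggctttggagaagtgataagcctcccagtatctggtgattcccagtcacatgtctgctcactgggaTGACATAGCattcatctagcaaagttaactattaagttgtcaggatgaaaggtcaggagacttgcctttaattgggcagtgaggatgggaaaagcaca

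Both strands of the 250 bases before the promoter table's start were searched. TGACNNNGC was found for Abcc2 and Abcc4 and stood in 10.2% of all 32851 promoters. The E-box CACGTG, a site class bound by clock factors, was found for Abcc4 and in 6.02% of all promoters. The D-box TTATGNAA, bound by DBP and TEF, was in the window of 0 of the 9 transporters and of 3.07% of all promoters. TATAAA was found for Slco1b2, Slco1a1, Slc10a1 and Abcg5, and in 12.4% of all. These matches describe letters in a window and were not tested as binding sites.

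Slco1a4 encodes OATP1A4, a basolateral carrier that takes up bile acids, steroid conjugates and cardiac glycosides without sodium. Its deposited signal had a lowest, median and highest value of 272, 356 and 702 with leptin, and of 464.5, 996 and 1310 with PBS (probe ILMN_1258323). The normalized log2 levels were 7.44, 8.01 and 9.24 with leptin, and 8.52, 9.81 and 10.24 with PBS. All 6 leptin arrays were below the PBS median and 5 of the 6 were below every PBS array; leptin 1, the highest of its group, lay above PBS 2, the lowest of the other. Slco1a4 averaged 8.09 ± 0.66 with leptin and 9.64 ± 0.62 with PBS, a difference of -1.55 ± 0.32 (95% confidence interval -2.24 to -0.85, limma adjusted p = 0.00716), or 2.92-fold lower with leptin. The size of this difference stood at percentile 98.9 of the absolute differences of all genes tested. The authors' deposited table, made without background subtraction, lists -1.26 for Slco1a4 as the log2 difference. A second Slco1a4 probe was detected on 0 arrays.

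Slco1b2 encodes OATP1B2, the liver-specific carrier that takes up unconjugated bile acids, bilirubin and many drugs. Its log2 levels had a lowest, median and highest value of 13.38, 13.99 and 14.06 with leptin, and of 13.43, 13.63 and 13.88 with PBS. Of the leptin arrays, 4 of 6 were above every PBS array, while leptin 4 was the lowest of all 12. Slco1b2 averaged 13.87 ± 0.26 with leptin and 13.65 ± 0.21 with PBS, a difference of 0.22 ± 0.14 that did not pass (95% interval -0.08 to 0.52, limma adjusted p = 0.308). A second detected probe gave a difference of 0.31 ± 0.20 (limma adjusted p over probes = 0.322), and another was detected on 0 arrays.

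The other uptake carriers could not be followed here. Slc10a1 encodes NTCP, the sodium-dependent carrier of conjugated bile acids, and its probe was detected on 1 leptin array and 1 PBS array, with deposited signals of 122.6 to 138.6 with leptin and 119.8 to 142.6 with PBS. The probe of Slco1a1, which encodes the organic anion carrier OATP1A1, was detected on 0 arrays, with signals of 114 to 133 with leptin and 112 to 130 with PBS. Both ranges lay close to the array's median signal of 118.9, and overlapped between groups. These probes were not well above background, which says nothing of the genes' level.

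**Figure D1:**
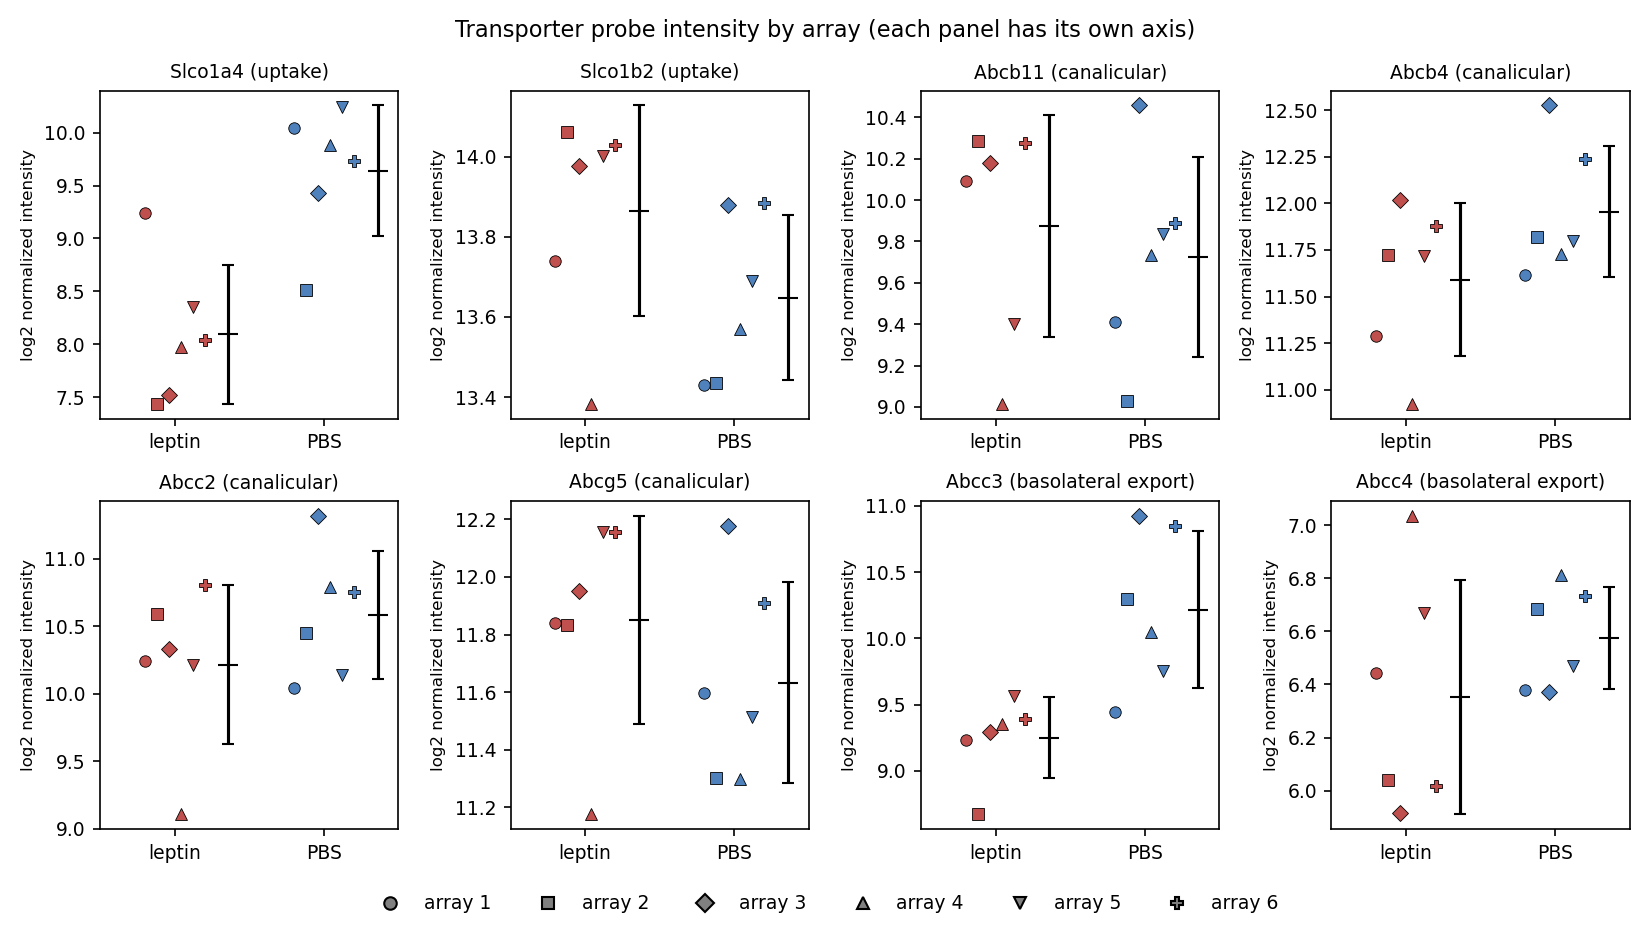
Normalized intensity (log2, y axis, a separate scale per panel) of the 8 tested transporters by array, with leptin left of PBS; points are the 6 arrays of a group, with a symbol per array number (red leptin, blue PBS), and the bars are the group mean and SD. In Slco1a4, 5 of 6 leptin arrays lie below every PBS array, and the same count holds in Abcc3, while the canalicular pumps overlap widely and have leptin 4 as their lowest leptin point.

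The canalicular pumps were all detected on every array, and 0 of 4 passed. Their median difference was -0.11. Abcb11 encodes BSEP, the pump that exports bile acids into bile. Its log2 levels were 9.01, 10.14 and 10.28 (lowest, median and highest) with leptin, and 9.03, 9.78 and 10.46 with PBS, so the groups covered nearly the same range. The difference in Abcb11 was 0.15 ± 0.26 (95% interval -0.41 to 0.71, limma adjusted p = 0.736).

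Abcb4 encodes MDR2, which moves phosphatidylcholine into the outer leaflet of the canalicular membrane for release into bile. It had log2 levels of 10.92, 11.72 and 12.02 with leptin, and of 11.62, 11.81 and 12.53 with PBS. The upper part of the PBS range was not reached by leptin arrays, nor the lower part of the leptin range by PBS arrays, but the medians were close. The difference in Abcb4 was -0.36 ± 0.20 (95% interval -0.80 to 0.07, limma adjusted p = 0.239).

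Abcc2 encodes MRP2, which exports bilirubin glucuronides and glutathione conjugates. Its log2 levels were 9.11, 10.29 and 10.81 with leptin, and 10.04, 10.61 and 11.32 with PBS. The lowest value, from leptin 4, stood well apart from the other leptin arrays. Abcc2 differed by -0.37 ± 0.27 (95% interval -0.96 to 0.22, limma adjusted p = 0.379), and its second detected probe by -0.12 ± 0.28 (limma adjusted p over probes = 0.801).

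Abcg5 encodes a subunit of the sterol exporter ABCG5/ABCG8, which sends cholesterol and plant sterols into bile. Its log2 levels were 11.18, 11.90 and 12.16 with leptin, and 11.30, 11.56 and 12.18 with PBS. Leptin 4 again was the low value, and PBS 3 the high one. Abcg5 differed by 0.22 ± 0.19 (95% interval -0.19 to 0.63, limma adjusted p = 0.458). Abcg8, the partner subunit, named here after its value was seen, differed by 0.46 ± 0.31 (limma adjusted p = 0.334).

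The canalicular values moved with 2 arrays. Leptin 4 was the lowest leptin array in 5 of the 8 transporters, including all 4 canalicular pumps, and PBS 3 was the highest PBS array in 5 of the 8, those 4 and Abcc3. Averaged over the 4 pumps, and set against the PBS mean, leptin 4 stood at -0.92 and the other leptin arrays between -0.11 and 0.30, while PBS 3 stood at 0.65 and the other PBS arrays between -0.32 and 0.22. Without this pair of arrays the difference in Abcg5 was 0.46 ± 0.14 and passed (limma adjusted p = 0.0418), that in Abcb11 was 0.47 and that in Abcb4 was -0.12, neither of which passed. Abcc2 then differed by 0.0018. Since these arrays are the low leptin and high PBS extremes of the 4 pumps, leaving them out raises each pump's difference by construction, and the call of Abcg5 is no independent support for a rise. Slco1a4 differed by -1.56 and Abcc3 by -0.84 without the pair, and both still passed.

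**Figure D2:**
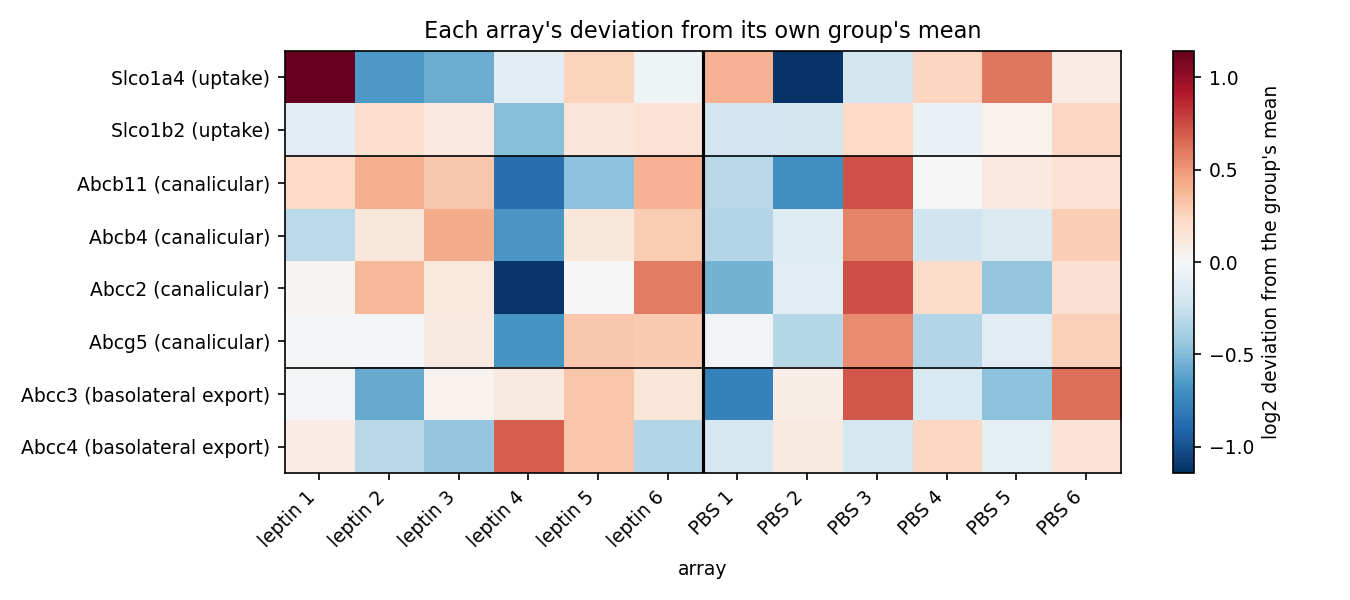
Deviation of each array (columns, leptin then PBS) from its own group's mean for each tested transporter (rows), in log2 units by colour. The column of leptin 4 is low, and that of PBS 3 high, in all 4 canalicular pumps, and PBS 3 is also the highest PBS array in Abcc3.

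Abcc3 encodes MRP3, a basolateral pump that returns glucuronides and bile acids to the blood. Its deposited signal had a lowest, median and highest value of 507, 739 and 858 with leptin, and of 795, 1256 and 2045 with PBS (probe ILMN_2685157). On the normalized log2 scale the values were 8.67, 9.32 and 9.57 with leptin, and 9.44, 10.17 and 10.93 with PBS. All 6 leptin arrays were below the PBS median and 5 of the 6 below every PBS array, the exception being leptin 5, which lay above PBS 1. Abcc3 averaged 9.25 ± 0.31 with leptin and 10.22 ± 0.59 with PBS, a difference of -0.97 ± 0.24 (95% confidence interval -1.49 to -0.44, limma adjusted p = 0.0176), or 1.95-fold lower with leptin. Its size stood at percentile 95.2 of all genes tested. The authors' deposited table lists -0.87 for Abcc3.

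Abcc4 encodes MRP4, the other basolateral pump, which exports bile acids together with glutathione, and also cyclic nucleotides. Its log2 levels were 5.91, 6.24 and 7.04 with leptin, and 6.37, 6.58 and 6.81 with PBS. The leptin arrays spread on both sides of the PBS range, with leptin 4 as the highest of all 12. Abcc4 differed by -0.22 ± 0.19 (95% interval -0.62 to 0.18, limma adjusted p = 0.434). This is a dim probe, for which a log2 difference understates a change.

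**Figure D3:**
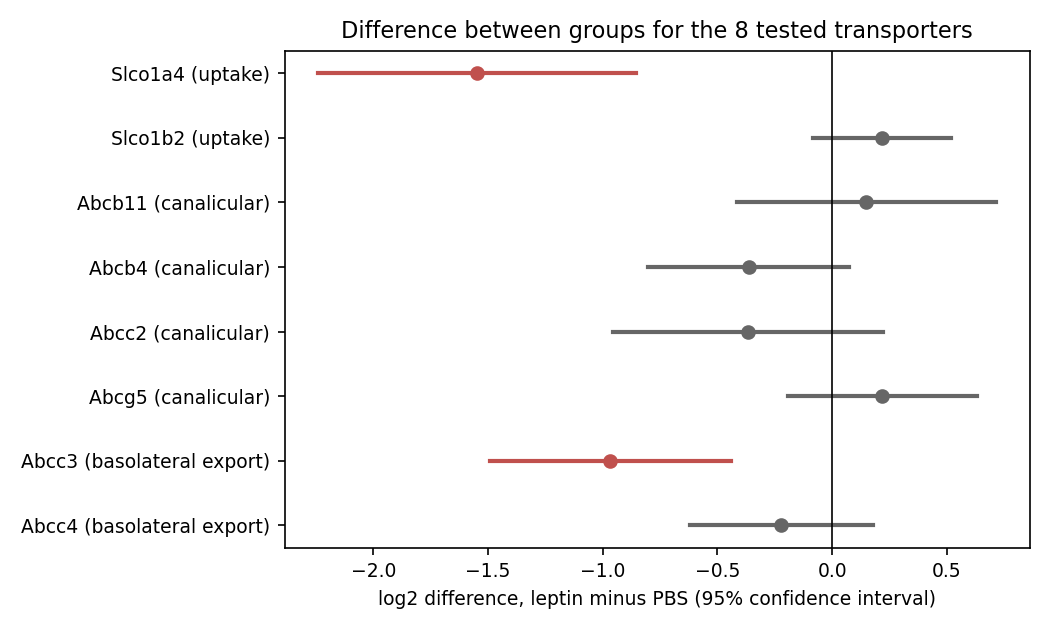
Difference in log2 normalized intensity, leptin minus PBS (x axis), for the 8 tested transporters (rows, with their role); points are the fitted differences and bars their 95% confidence intervals. The intervals of Slco1a4 (-2.24 to -0.85) and Abcc3 (-1.49 to -0.44) lie wholly below 0, and the other 6 include it.

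By role, the median difference was -0.66 for the 2 uptake carriers tested, -0.11 for the 4 canalicular pumps and -0.59 for the 2 basolateral pumps. A median of 2 genes is their mean, here of Slco1a4 (-1.55) and Slco1b2 (0.22), and of Abcc3 (-0.97) and Abcc4 (-0.22). These values therefore do not describe a role as a whole. Whether transporters of 1 role differed from each other was tested per array with an exact permutation test of the 924 ways to split the 12 arrays, over 8 pairs that were chosen after their values were seen, two-sided and adjusted over the 8. The smallest p this design allows is 0.00216. Slco1a4 and Slco1b2 differed in their response. Slco1a4 minus Slco1b2, set to the PBS mean, was -2.62, -1.81 and -0.49 (lowest, median and highest) on leptin arrays and -0.91, 0.09 and 0.62 on PBS arrays, a difference of -1.76 (exact permutation p = 0.00433, adjusted p = 0.0173).

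Among the canalicular pumps, Abcb4 and Abcg5 also differed in their response, although neither passed the test alone. Abcb4 minus Abcg5 was -0.88, -0.59 and -0.25 on leptin arrays and -0.30, 0.02 and 0.19 on PBS arrays, a difference of -0.58 (exact permutation p = 0.00433, adjusted p = 0.0173). The groups overlapped only between the highest leptin and the lowest PBS value. Both of these pairs passed with any 1 array left out. A further 4 pairs passed at an exact permutation adjusted p of 0.0404, namely Abcb11 minus Abcb4 (0.51), Abcb11 minus Abcc2 (0.52), Abcc2 minus Abcg5 (-0.59) and Abcc3 minus Abcc4 (-0.74). Each of these 4 was lost without any 1 of 8 to 10 arrays, leptin 1 to leptin 4 and PBS 2, PBS 3, PBS 4 and PBS 6 among them in most, with exact permutation adjusted p from 0.0519 to 0.0866 where lost. All 4 were also lost when a gene was taken as the mean over its kept probes (exact permutation adjusted p = 0.0577). The remaining 2 pairs did not pass.

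A broader list of hepatic transporters for bile acids, organic ions, sterols and phospholipids had 17 members tested, of which 2 rose and 3 fell, with a median difference of 0.12. Over all genes tested, 16.7% passed (8.31% higher and 8.4% lower). The count of this list and those of the lists below are to be read against these shares. Tmem30a, the partner of the canalicular phospholipid flippase ATP8B1, rose by 1.31 ± 0.24 (limma adjusted p = 0.00316). Slc22a5, the carnitine carrier OCTN2, fell by 1.05 ± 0.16 (limma adjusted p = 0.000994). Slco3a1, an organic anion carrier of the Slco family, rose by 0.62 ± 0.17 (limma adjusted p = 0.0249), and was lost without PBS 5 (limma adjusted p = 0.0537) or without PBS 6 (limma adjusted p = 0.0517). Of the whole list 2 passed without PBS 5 and 3 without PBS 6.

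Of 9 tested genes for membrane anchors and traffic of the transporters, 1 fell and 0 rose, with a median of 0.12 (8.4% of all genes tested fell). Without PBS 3 the number that passed was 2. Bsg, a chaperone that brings monocarboxylate carriers to the cell surface, fell by 0.86 ± 0.13 (limma adjusted p = 0.0012). Of 4 tested genes of bile acid amidation, 0 passed by limma and 1 had an unadjusted p under 0.05. Acnat2, an acyltransferase related to the bile acid conjugating enzyme, differed by -1.60 ± 0.53 (limma adjusted p = 0.0525), and passed without leptin 4, without leptin 5 or without PBS 3. Baat, which joins bile acids to taurine and glycine, differed by -0.24 ± 0.16 (limma adjusted p = 0.311).

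Of 17 tested receptors and factors that regulate the transporters, 2 fell and 0 rose, with a median of -0.08. Of all genes tested, 16.7% passed and 8.4% fell. Nfe2l2, which encodes NRF2, an inducer of Abcc2, Abcc3 and Abcc4 in mouse liver, fell by 0.82 ± 0.22 (limma adjusted p = 0.0212). Foxa2, a hepatocyte factor that regulates bile acid genes, fell by 0.76 ± 0.23 (limma adjusted p = 0.0366), and lost the call without any 1 of 9 arrays (all but leptin 2, leptin 3 and PBS 5), with limma adjusted p between 0.0504 and 0.0795 where lost. Foxa2 was also lost with no detection filter (limma adjusted p = 0.0806) and with array weights (limma adjusted p = 0.0577).

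Genes known as targets of the same regulators were counted as lists. Of 9 tested NRF2 targets 3 fell and 0 rose, with a median of -0.33 (8.4% of all genes tested fell). Gsta1, a glutathione transferase, fell by 2.76 ± 0.44 (limma adjusted p = 0.00155), and its near-identical paralog Gsta2, whose probe may not tell them apart, fell by 2.72 ± 0.45 (limma adjusted p = 0.00193). Nqo1, a quinone reductase, fell by 1.60 ± 0.22 (limma adjusted p = 0.000726). Without leptin 5 the number of NRF2 targets that fell was 5, and without leptin 4 and PBS 3 together it was 6.

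Of 15 tested targets of the drug-sensing receptors CAR and PXR, 7 fell and 0 rose, with a median of -0.57. Slco1a4 is itself known as a target of these receptors in mouse liver, and Abcc3 of CAR. Cyp2b10, the classical CAR target, fell by 3.44 ± 0.82 (limma adjusted p = 0.0131), and its close paralog Cyp2b9 fell by 3.18 ± 0.69 (limma adjusted p = 0.00875). Cyp3a25, a drug-metabolizing P450, fell by 1.76 ± 0.21 (limma adjusted p = 0.000377). Of 9 tested targets of the bile acid receptor FXR, a list that includes Abcb11 and Abcb4, 2 fell and 0 rose, with a median of -0.07. Among all genes tested, 16.7% passed and 8.4% fell. Sdc1, a heparan sulfate proteoglycan, fell by 0.94 ± 0.16 (limma adjusted p = 0.0026). Apoc2, the activator of lipoprotein lipase, fell by 0.66 ± 0.21 (limma adjusted p = 0.0406), and was lost without any 1 of 9 arrays (all but leptin 1, leptin 4 and PBS 3). Apoc2 was also lost as the mean over its kept probes (limma adjusted p = 0.11) and with no detection filter (limma adjusted p = 0.084). Whether these regulators act on the transporters was not tested.

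Of 11 clock genes tested, 3 rose and 2 fell with leptin, with a median of 0.50 (8.31% of all genes tested rose and 8.4% fell). The labels give no time of day for the livers. Dbp rose by 2.65 ± 0.53, Arntl fell by 1.69 ± 0.27 and was detected on 0 leptin arrays and 5 PBS arrays, and Clock fell by 1.03 ± 0.14 (limma adjusted p = 0.00566, 0.00159 and 0.000726). Arntl was thus kept only through the PBS arrays, and the filter itself favoured a fall in it. With no detected leptin value, its difference is only a bound. A score per array, the mean of Dbp, Tef, Per3 and Nr1d2 minus Arntl, had a lowest, median and highest value of 2.57, 4.43 and 4.67 on leptin arrays and of 0.49, 0.88 and 3.71 on PBS arrays. Per3, detected on 5 leptin arrays and 1 PBS array, was kept only through the leptin arrays. Through Arntl and Per3, the filter itself favoured a higher score with leptin. The groups overlapped in the score, since the lowest leptin score belonged to leptin 4 and the highest PBS score to PBS 3, the same arrays that stood apart in the canalicular pumps. With this score as a covariate, Slco1a4 differed by -1.57 ± 0.60 (limma adjusted p = 0.147) and Abcc3 by -1.28 ± 0.44 (limma adjusted p = 0.112), so that neither passed, while 303 genes in all still did. All 4 canalicular pumps were below 0 in that fit, Abcb11 at -0.88 (limma adjusted p = 0.154), Abcb4 at -1.07 (limma adjusted p = 0.0624), Abcc2 at -1.41 (limma adjusted p = 0.0569) and Abcg5 at -0.55 (limma adjusted p = 0.212), and 0 of them passed. The score largely follows the groups, so the SE of a difference widens with it. Leptin 4 and PBS 3 stand furthest from their groups in the score and are also the extremes of the 4 pumps. These arrays thus weigh heavily on the fitted slope of the score, and the shift of the pumps below 0 is no independent support for a fall.

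**Figure D4:**
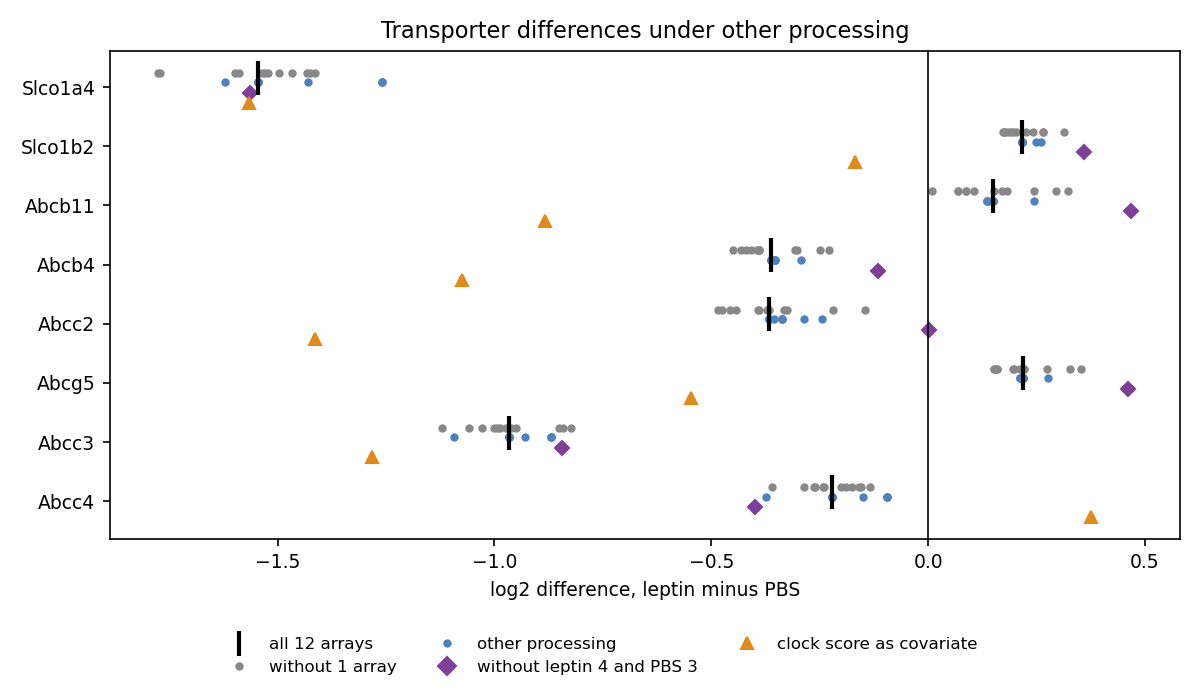
Difference in log2 normalized intensity, leptin minus PBS (x axis), of the 8 transporters (rows) in the fit reported, with each array left out, and under the other settings named in the legend. Slco1a4 and Abcc3 stay below 0 throughout, and the fit with the clock score moves Abcc2 and Abcb11 furthest, to -1.41 and -0.88.

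Markers of the cell types in liver were counted beside these values. Of 9 tested hepatocyte markers 2 fell and 0 rose, with a median of 0.02, where 16.7% of all genes tested passed and 8.4% fell. Their summed linear intensity ran from 274863 to 291899 on leptin arrays and from 255703 to 286327 on PBS arrays. The hepatocyte markers that fell were Tat (-2.02), an amino acid catabolic enzyme, and Alb (-0.83). The call of Alb was lost without any 1 of 10 arrays (all but leptin 1 and PBS 2), and with no detection filter (limma adjusted p = 0.0859). Both probes were dim, with mean log2 levels of 5.78 with leptin and 7.80 with PBS for Tat, and of 6.27 and 7.10 for Alb. The Alb probe may therefore not report the level of albumin mRNA. Of 6 tested markers of cholangiocytes, which line bile ducts, 1 rose, Aqp1 by 0.57 ± 0.10, and 0 fell (median 0.17), with 2 called without PBS 3. The cholangiocyte sum ran from 4335 to 5834 on leptin arrays and from 3277 to 4329 on PBS arrays. Most of this sum was Aqp1, the brightest of the 6 (mean log2 level 12.02 with leptin and 11.45 with PBS). Of the 6, 3 differed in the other direction without passing, Sox9 by -0.82, Krt7 by -0.08 and Slc4a2 by -0.05. Krt19, Epcam, Cftr, Sctr and Cldn4 were detected on 0 arrays.

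Markers of the other liver cell types were also counted, where 8.31% of all genes tested rose and 8.4% fell. Of 8 Kupffer cell and macrophage markers 3 rose (median 0.91; sums of 7230 to 18761 on leptin arrays and of 4747 to 10417 on PBS arrays), Timd4 by 1.06 ± 0.32, C1qa by 1.003 ± 0.25 and Clec4f by 0.97 ± 0.18. The call of Timd4 was lost without any 1 of 8 arrays (all but leptin 2, leptin 4, leptin 6 and PBS 2), and in the list 5 passed without leptin 6 and 7 without PBS 2. Timd4 was also lost with no background correction and with the authors' log2 values (limma adjusted p = 0.0806 in each). It was lost too with a neqc offset of 50 (limma adjusted p = 0.0524) and with no detection filter (limma adjusted p = 0.0888). Sinusoidal endothelial markers had 2 of 9 rise, Cdh5 by 1.03 and Stab2 by 0.58 (median 0.23; sums of 6980 to 9875 on leptin arrays and of 4773 to 9672 on PBS arrays). Stellate cell markers had 2 of 8 rise, Acta2 by 1.27 and Hgf by 0.75, the second lost without leptin 1, leptin 5 or PBS 5 (median 0.47; sums of 5823 to 10435 on leptin arrays and of 4220 to 8212 on PBS arrays). Hgf was also lost with no detection filter (limma adjusted p = 0.0518). Lymphocyte and neutrophil markers had 3 of 5 rise, Cd3g by 0.96, Cd79b by 0.93 and Cd3e by 0.88 (median 0.93). Cd3g was detected on 4 leptin and 0 PBS arrays, Cd3e on 5 and 0, and Cd79b on 6 and 1. All 3 were thus kept only through the leptin arrays, and the filter itself favoured a rise in them. The sums of this list ran from 250.3 to 7199 on leptin arrays and from 188.3 to 6422 on PBS arrays. The brightest of the 5 was S100a8, which did not pass. None of these 4 lists had a member that fell, and Cd5l, Kdr, Pdgfrb, Cd8a and Ms4a1 were detected on 0 arrays. The part of cell composition in the lower Slco1a4 and Abcc3 was not tested.

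The genes whose array-to-array pattern was most like that of Slco1a4 were found by the root mean square difference of standardised deviations from the group means, over 12 arrays and 8818 other genes. These were Rida (0.404), Cyp4a14 (0.432) and Zfp414 (0.456), against a median of 1.44 over all genes. Cyp4a14, a fatty acid omega-hydroxylase, also fell with leptin, by 6.48 ± 0.57 (limma adjusted p = 2.25e-05). Rida, a deaminase of reactive amino acid intermediates, fell by 0.48 ± 0.15 (limma adjusted p = 0.0492), a call lost without any 1 of 10 arrays (all but leptin 1 and PBS 2), and Zfp414 did not pass. Rida was also lost with no detection filter (limma adjusted p = 0.0793). For Abcc3 the nearest were Cd47 (0.374), Stk4 (0.392) and Ipo5 (0.393), against a median of 1.37, and 0 of these passed. This likeness is a description over 12 arrays.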

How the data were processed

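Per the labels' protocols, liver RNA was labelled as biotinylated cRNA for Illumina arrays. The deposited intensity values, called AVG_Signal per the file headers, come with a detection p-value per probe. Their distributions were equal on all 12 arrays and no background was subtracted (lowest signal 95.9), by software not given in the sources. The authors' deposited log2 values equal log2 of these signals, and the authors' deposited Cyber-T table holds a p-value and a log2 difference per probe. Of 45281 probes, 34885 had 1 symbol in the platform annotation, 18 had several and 10378 none; 34807 matched RefSeq GRCm38.p6 by gene identifier.

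limma's neqc (offset 16) gave log2 values. Probes with detection p under 0.01 on at least 3 of 12 arrays were kept (15062), and a gene was its kept probe of highest mean (8819 genes). Groups were compared with lmFit and eBayes, in a fit tested on simulated data. Members, lists and pairs were chosen with earlier results of these data known. Genes named are all members, up to 3 called genes per list with the greatest difference (2 where none passed), and the 3 nearest patterns of each called member; named marker genes follow the same rule. Alternatives were background correction, offset, the authors' values and p-values, filters, probe rule, variance model, array weights, a replicate block, a clock score, leaving out each array, and leaving out leptin 4 with PBS 3. Slides are not given, so batches could not be tested. Versions were R 4.3.3 and limma 3.58.1.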

Additional observations from a re-analysis of the deposited data

Results flagged for a closer look

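Among 16 groups of 6 arrays (8 transporters in each of 2 groups), 3 had an array far from the others by Dixon's ratio of the gap to the range, past its 95% critical value. At this level chance alone flags about 5% of groups. In Abcc2, leptin 4 was at 9.11 and the nearest leptin array at 10.21 (ratio 0.650). In Abcg5, leptin 4 was at 11.18 and the nearest at 11.83 (ratio 0.670). In Abcc3, leptin 2 was at 8.67 and the nearest at 9.24 (ratio 0.628). Without leptin 2 the fall of Abcc3 still passed.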

How the results depend on the processing

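Slco1a4 passed in 12 of 12 fits that left out 1 array (-1.77 to -1.41) and in 11 of 12 other settings (-1.62 to -1.26), and Abcc3 likewise in 12 of 12 (-1.12 to -0.82) and 11 of 12. The exception for both was the clock score as a covariate. With it 303 genes and 0 transporters passed, against 1474 and 2. Slco1a4 was then -1.57, Abcc3 -1.28, Slco1b2 -0.17, Abcb11 -0.88, Abcg5 -0.55, Abcc4 0.37, Acnat2 0.37 and Dbp -0.20, the last 6 of opposite sign to the fit reported, and Abcb4 was -1.07 and Abcc2 -1.41, with none past the threshold. Dbp is itself part of the score, so the loss of its difference in this fit follows by construction. Without leptin 4 and PBS 3 together Abcg5 passed (0.46), 3 transporters passed in all, and Abcc2 was 0.0018, an upward shift that follows from leaving out the low leptin and high PBS extremes of these genes. The pair differences of Slco1a4 minus Slco1b2 and Abcb4 minus Abcg5 were then -1.92 and -0.58. Each had an exact permutation adjusted p of 0.0635 and no longer passed. With 5 arrays a group the smallest exact permutation p is 0.00794, and 1 pair alone at it has an adjusted p of 0.0635. Had both pairs been at this smallest p, both would have passed, so the number of arrays alone did not fix the loss. With all 12 arrays the differences were -1.76 and -0.58. The sizes were thus similar while the test had fewer arrays. Whether the pair differences depend on leptin 4 and PBS 3 cannot be told from this loss. The authors' p-values gave 994 genes. Leaving out 1 array gave 1053 to 1549 genes. Over the 34 other named genes, 708 of 813 values kept direction and side of the threshold, 97 no longer passed, 6 newly passed and 2 changed sign.

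Whether replicate numbers pair the samples is not settled by the labels. Correlations of same-numbered deviations were 0.46, -0.32, 0.29, 0.04, -0.04 and 0.26, over 0.1 in 3 of 6, and 2 of 6 numbers correlated best with their own, so the numbers were not used as pairs. With the number as a replicate block 1384 genes and 2 transporters passed, Slco1a4 at -1.55 ± 0.18 (limma adjusted p = 0.00212) and Abcc3 at -0.97 (limma adjusted p = 0.0265). With 6 arrays a group, the intervals of the 6 transporters that did not pass reach from -0.96 to 0.71, and differences within them were not resolved. The signals of Slc10a1 and Slco1a1 were too close to background to be followed.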
